A study of Mus musculus with 4 samples.

Results

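In the STAM20w section, a 20-week liver of the STAM metabolic model, 335 Visium spots carried the highest share of RNA from mitochondrial genes, and these spots are described here. Of 2895 deposited spots, 2833 held at least 500 UMIs (unique molecular identifiers, each standing for 1 captured RNA molecule) and at least 250 genes. Of these, 2234 held at least 5000 UMIs, and the members are the 15% of them with the largest share of UMIs from the 13 listed genes whose names start with mt-. Each member was paired 1 to 1 with the spot of nearest UMI total among the 1117 spots at or below the median of that share, called the matched spots. All sections together held 10627 kept spots.

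The study placed mouse livers from models of liver disease and cancer on Visium slides, with 1 section for each model and time point. The STAM sections, at 16 and 20 weeks, come from a model that the labels relate to metabolic steatohepatitis with type I diabetes. The DEN sections, at 22 and 30 weeks, come from diethylnitrosamine with CCL4, a model of DNA damage and fibrosis. The labels call the weeks a time point without saying whether they count age or time since the first treatment, and they give neither strain nor sex nor an untreated section. Whether each section is from a different animal is not stated, and a p-value over sections therefore measures no more than the spread between these 4 sections. The tissue was frozen fresh, embedded, cut and stained with haematoxylin and eosin before RNA capture. A spot is a small region that can hold several cells or parts of cells, and fewer cells of a type cannot be told apart from less RNA per cell.

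Mitochondria keep a small circular genome of their own, which encodes core subunits of the respiratory chain and of ATP synthase, while all other subunits are encoded in the nucleus and imported. Its strands are transcribed as long precursors and cut into single RNAs inside the organelle. These RNAs are abundant in tissues with many mitochondria such as liver. The share of mitochondrial RNA in a spot therefore depends both on these transcripts and on how much other RNA was captured there.

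Mitochondrial genes took 5.61 to 24.0% of the UMIs in the 335 members, with a median of 8.29% and quartiles of 6.69 and 10.3%. In the 335 matched spots they took 0.876 to 2.29%, with a median of 1.74%. The median depth was 19562 UMIs in members and 19568 in matched spots, and 57 of the pairs differed by more than 0.05 in log10 UMIs, the largest gap being 0.0971. The members lay on a continuous range: the 5 lowest members held 5.61, 5.62, 5.63, 5.64 and 5.65%, and the 5 spots just under the limit held 5.61, 5.61, 5.60, 5.59 and 5.59%. A further 130 spots with fewer than 5000 UMIs were past the limit and were left out. The same rule gave 280, 293 and 326 members in STAM16w, DEN22w and DEN30w, but at much lower limits of 2.47, 1.45 and 1.47%. Over all kept spots, mitochondrial genes took 3.67% of UMIs in STAM20w against 2.10, 1.31 and 1.55% in those sections.

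The members lay together in the tissue. Of the neighbours of members that held at least 5000 UMIs, 52.3% were members themselves, against 14.97% for any such spot. They formed 68 connected groups, of which 1 held 216 members (64.5%), the next held 9, and 44 members stood alone. In the other sections the largest group held 30, 39 and 72 members, or 10.7, 13.3 and 22.1% of them. Most members lay in the later array rows of the section: they made up 20.3 and 28.1% of deep spots in the parts with later rows against 5.37 and 4.26% in the parts with earlier rows. The tissue edge, where a spot has fewer than 6 neighbours over tissue, held 8.36% of members (28 spots, exact 95% interval 5.63 to 11.9%) and 12.5% of matched spots (42 spots, 9.19 to 16.6%). The other sections differed in this respect, with 26.1, 29.4 and 44.2% of members at the edge in STAM16w, DEN22w and DEN30w against 10.7, 6.83 and 6.44% of matched spots. Here and below, intervals cover counting error only and not the variation between livers.

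**Figure D1:**
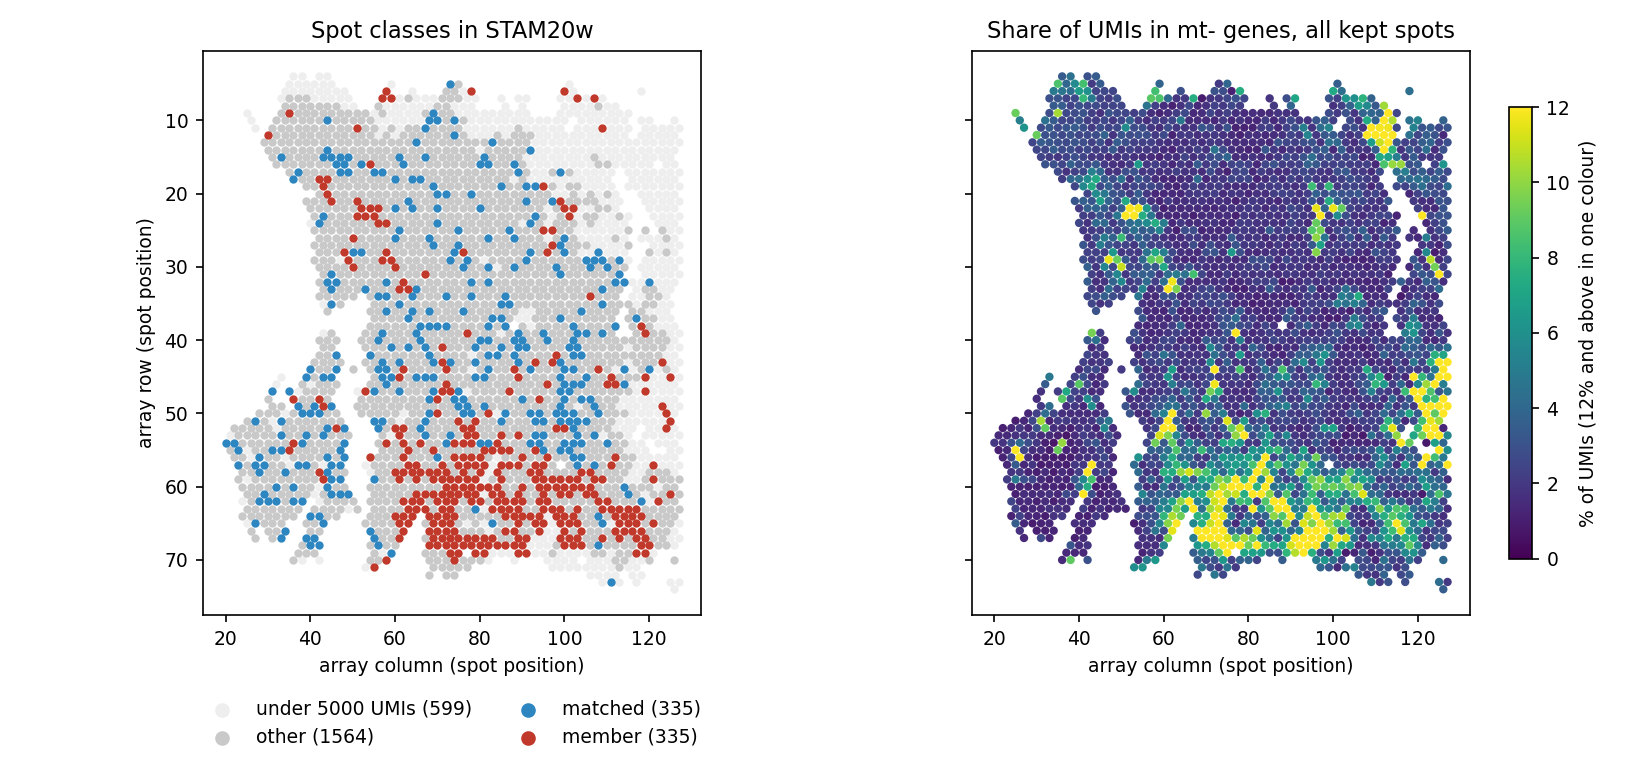
Kept spots of STAM20w at their array row and column. The left panel colours members red, matched spots blue, other spots of at least 5000 UMIs dark grey and shallower spots light grey, and the right panel colours all kept spots by the percent of UMIs in mt- genes; the largest connected group of 216 members lies in the later rows.

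When spots were clustered without the mitochondrial genes, 208 members (62.1%) fell in 1 cluster of 413 spots. Of the 363 spots of that cluster with at least 5000 UMIs, 57.3% were members (exact 95% interval 52.0 to 62.4%) and 4 were matched spots. Its leading genes by fold were Ppbp and Pf4, which platelets store in granules, the nuclear RNA Malat1, and the haemoglobin genes Hba-a1, Hbb-bt and Hba-a2. A further 41 members fell in a cluster led by Car4 and Gpx2. The matched spots lay elsewhere: 100 (29.9%) were in a cluster led by the immunoglobulin genes Ighg2b and Igkc, 54 (16.1%) in one led by Sfrp2 and Cpe, 51 (15.2%) in one led by the fetal liver genes H19 and Afp, and 28 in one led by Gm14210, Akr1c18 and Cib3. The members' cluster and the connected group largely coincided, with 169 of the 216 spots of the group (78.2%) in that cluster. The comparison of members with matched spots thus also sets different regions of the section against each other. This is taken up below beside genes past 2-fold, but not for most gene lists.

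All 13 mitochondrial genes were higher in members, as the rule requires, and their values are given as a description with no test. As CPM of all UMIs, mt-Atp8, which encodes a short ATP synthase subunit, stood at 199 in members and 19.1 in matched spots, a 10.4-fold ratio from 1397 and 126 UMIs. Its reading frame overlaps that of mt-Atp6, which was 5.30-fold higher, so reads from the overlap cannot be split between them. The complex I subunit gene mt-Nd5 was 7.23-fold higher, mt-Nd4l 6.88-fold, and the cytochrome oxidase subunit gene mt-Co2 6.48-fold. The ratios were smaller for mt-Co3 (4.64-fold), mt-Co1 (4.54-fold) and the complex III gene mt-Cytb (4.04-fold). The single protein gene on the other strand, mt-Nd6, held 25 UMIs in members and 4 in matched spots.

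The makeup of the mitochondrial RNA differed less than its amount. Of all mitochondrial UMIs, mt-Co1 took the largest share of both classes, 22.8% in members and 25.3% in matched spots. The share of mt-Atp8 was 2.07 times as large in members and that of mt-Nd5 1.44 times, while that of mt-Cytb was 0.802 times. In the other sections the mt-Atp8 ratio of members to matched spots was 2.88 in STAM16w, 4.66 in DEN22w and 3.52 in DEN30w, and the mt-Nd5 ratio was 2.97, 2.83 and 3.58. The 3 marker genes of the class, mt-Atp8, mt-Nd5 and mt-Co2, thus had the 3 largest ratios of STAM20w apart from mt-Nd4l.

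Members and matched spots both carried hepatocyte RNA at high levels. Albumin (Alb) stood at 26583 CPM in members and 23460 CPM in matched spots, where CPM is counts per 1e+06 UMIs with the mitochondrial genes left out of gene and total. Over the section's 10 bins of equal spot number by mitochondrial share, Alb was 27002 CPM in the lowest bin and 27317 CPM in the highest. The hepatocyte markers Apoa1, Serpina1a and Ttr had log2 ratios of -0.12, 0.05 and 0.23. After each spot was thinned to 4000 UMIs of other genes, members held a median of 1668.5 genes and matched spots 1755. The direction was the same elsewhere, with 1581 against 1618 in STAM16w, 1667 against 1716 in DEN22w and 1698 against 1794.5 in DEN30w. Most genes had somewhat lower CPM in members of STAM20w: of 13037 genes at 1 CPM or more, 32.9% were above 0 and the median log2 ratio was -0.16. The same median was -0.06, -0.08 and -0.16 in STAM16w, DEN22w and DEN30w, and list medians below are to be read beside it.

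Within STAM20w there is 1 section and so no test between its spots: a gene was named when its CPM differed by at least 2-fold at 50 CPM or more in the higher class. Of 2799 genes at that level, 8 were higher in members (0.286%) and 14 were lower (0.5%). The rule that chose the members used the same spots, and nothing is read from these counts. The corresponding counts were 3 higher and 0 lower in STAM16w (0.12% and 0%), 3 and 0 in DEN22w (0.109% and 0%), and 10 and 2 in DEN30w (0.345% and 0.069%). The tests below come from edgeR's quasi-likelihood model of summed UMIs, with the section as a block and Benjamini-Hochberg adjustment over all genes tested. They ask whether members and matched spots differ in the 3 other sections, which had no part in choosing the STAM20w members, and whether the STAM20w difference departs from theirs. In the 3 other sections 6.89% of 10734 genes rose and 4.49% fell in members, and the STAM20w difference was higher than theirs for 0.538% of 11344 genes and lower for 0.502%. The departure test reuses the STAM20w counts that picked the named genes, so that a departure is partly built into their choice, and its count among them supports nothing. The 118 genes of that difference became 59 without DEN22w and 300 without DEN30w.

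**Figure D2:**
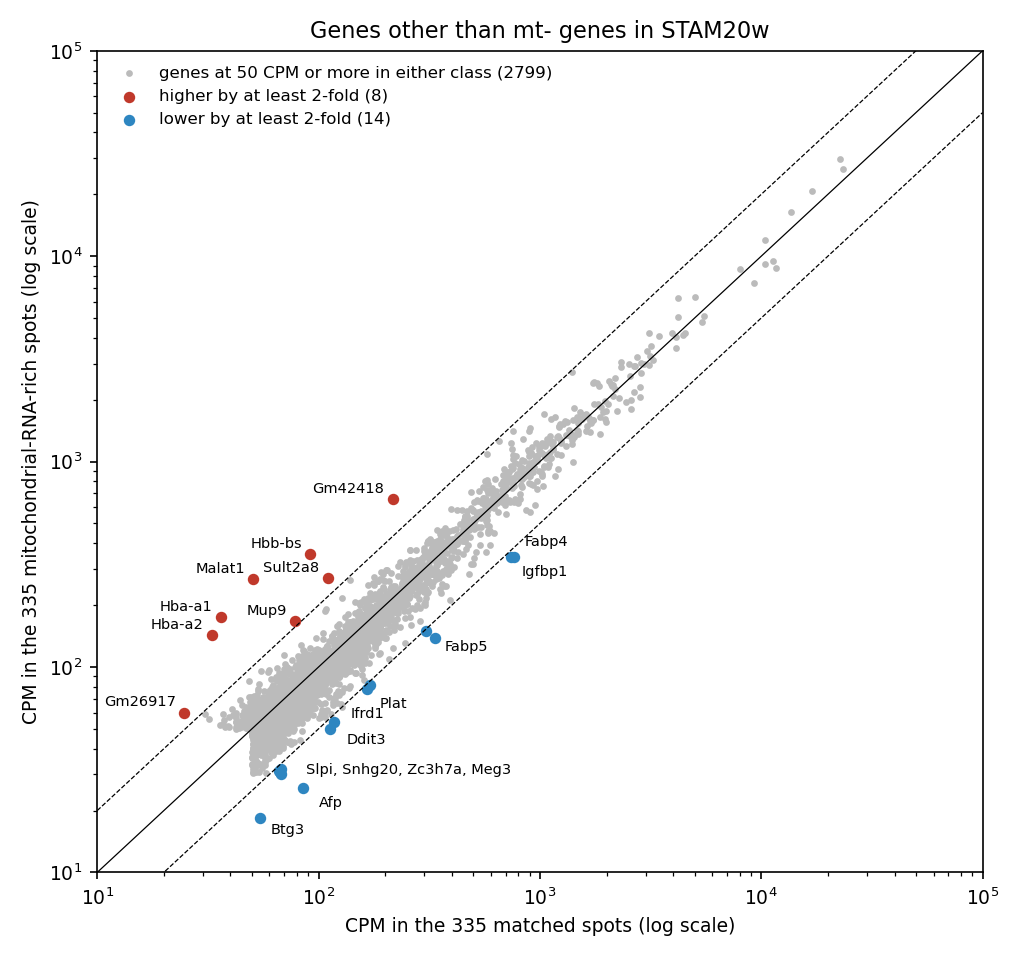
CPM without mt- genes in the 335 matched spots (x, log scale) and the 335 members (y, log scale) of STAM20w, 1 point per gene at 50 CPM or more in either class. The dashed lines mark 2-fold, past which 8 genes were higher (red) and 14 lower (blue), with Malat1, the haemoglobin genes and Gm42418 farthest above the line and Afp and Btg3 farthest below it.

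The largest ratio among the named genes was that of Malat1, a long noncoding RNA held in the nucleus (chromosome 19, 5795690 to 5802672 in GRCm38.p6, the assembly that mm10 names). It stood at 267 CPM in members and 50.7 CPM in matched spots of STAM20w, a log2 ratio of 2.40 (exact 95% interval 2.23 to 2.57) from 1707 and 328 UMIs. Over spots the lowest, median and highest Malat1 level of members were 0, 179 and 3387 CPM, against a median of 35.7 CPM in matched spots, and 84.2% of members lay above that median. In the other sections Malat1 stood at 161 and 189 CPM in members and matched spots of STAM16w, 61.8 and 32.3 in DEN22w, and 95.1 and 37.3 in DEN30w. STAM16w thus differed in direction from the rest. Over the 3 other sections together Malat1 rose (log2 change 0.69, SE 0.13, edgeR adjusted p = 9.01e-05), and the STAM20w difference exceeded theirs by 1.87 (SE 0.21, edgeR adjusted p = 6.3e-10).

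Malat1 was not spread evenly over the range of mitochondrial share. It stood at 49.99 CPM in the lowest of the 10 bins, 70.0 CPM in the eighth, 123 CPM in the ninth and 340 CPM in the tenth. It was likewise higher in members with more mitochondrial RNA: the log2 ratio to their own matched spots was 2.90 in the 167 members of larger share and 1.62 in the 168 of smaller share. The ratio was 2.69 in the largest connected group and 1.71 outside it, and pairs drawn from the same cluster gave 1.96. Here and below, pairs from the same cluster number 144. The cluster that held 208 members had only 21 spots at or below the median share, so at most 21 of those members were paired. Neat1, another nuclear RNA that builds paraspeckles, went the other way, at 363 CPM in members and 573 CPM in matched spots. Neat1 fell in the 3 other sections (log2 change -0.45, SE 0.07, edgeR adjusted p = 3.4e-06), and the STAM20w difference was not called apart from theirs (-0.05, SE 0.13, adjusted p = 0.947). Of the 6 nuclear-retained RNAs measured in STAM20w, 3 were above 0 and 3 below, with a median log2 ratio of 0.36. The nuclear-retained RNAs thus did not share 1 direction.

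Gm42418, a gene model that overlaps the repeat for ribosomal RNA, stood at 659 CPM in members and 216 CPM in matched spots, a log2 ratio of 1.61 (exact 95% interval 1.52 to 1.70). It lay above the matched median in 93.7% of members. Members and matched spots stood at 505 and 416 CPM in STAM16w, 342 and 191 in DEN22w, and 855 and 261 in DEN30w, so members were higher in every section. Gm42418 rose by 1.08 in the 3 other sections (SE 0.11, edgeR adjusted p = 1.74e-11), and STAM20w exceeded them by 0.70 (SE 0.19, adjusted p = 0.0421). A gene model of the same kind, Gm26917, stood at 59.9 and 24.7 CPM in STAM20w. It was not called in the 3 other sections (0.41, SE 0.18, edgeR adjusted p = 0.131), and the STAM20w difference exceeded theirs by 1.04 (adjusted p = 0.0107).

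Globin genes of red cells were higher in members of every section. The 4 erythroid genes, Hba-a1, Hba-a2, Hbb-bs and Alas2, summed to 677 CPM in members and 166 CPM in matched spots of STAM20w, and to 581 and 216, 532 and 196, and 776 and 174 CPM in STAM16w, DEN22w and DEN30w. The alpha globin genes Hba-a1 and Hba-a2 (chromosome 11, 32283672 to 32284486 and 32296492 to 32297310) are near-identical, so counts may be split between them. Hba-a1 stood at 175 and 36.2 CPM, a log2 ratio of 2.27 (exact 95% interval 2.07 to 2.48), and Hba-a2 at 2.11. The beta globin gene Hbb-bs stood at 354 and 91.9 CPM, a ratio of 1.95. Alas2, the haem synthesis enzyme of developing red cells, held only 36 and 31 UMIs.

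The globin difference was not particular to STAM20w in these data. In the 3 other sections Hba-a1 rose by 2.83 (SE 0.15, edgeR adjusted p = 9.6e-24) and Hbb-bs by 2.67 (SE 0.14, adjusted p = 5.92e-25). The STAM20w difference from them was not called for Hba-a1 (-0.39, SE 0.26, adjusted p = 0.651), Hba-a2 (-0.56, adjusted p = 0.362) or Hbb-bs (-0.56, adjusted p = 0.291). Members with lower mitochondrial share also carried globin RNA, with an Hba-a1 ratio of 1.80 in the 168 of smaller share and 2.71 in the 167 of larger share. Of the 335 members, 142 (42.4%) were among the 335 spots of highest erythroid share, 160 (47.8%) among those of highest Malat1 share and 123 (36.7%) among those of highest Mup share. The other 3 sections gave 23.9 to 33.4% for erythroid share, 13.9 to 25.8% for Malat1 and 32.4 to 36.5% for Mup share.

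Globin RNA differed with membership, and the other differences were measured again where it was low. When both classes were limited to spots at or below the section's median erythroid share, 53 pairs remained, and Malat1 still had a log2 ratio of 1.47 and Gm42418 of 1.22. In those pairs Hbb-bs was at 0.31, Hba-a2 at 0.82 and Hba-a1 at -0.12. These 3 values are partly fixed by the limit, which is set on the erythroid genes themselves. Nupr1, described below, was reversed to 0.20 there. Over the 2234 spots, Spearman's correlation with the mitochondrial share was 0.42 for erythroid share, 0.27 for Malat1, 0.43 for Gm42418, 0.35 for the Mup genes and 0.17 for log10 UMIs. For the Mup genes it was 0.18 in STAM16w, 0.37 in DEN22w and 0.48 in DEN30w, and for erythroid share 0.19, 0.11 and 0.16. These are descriptions over spots that share 1 library in each section.

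Platelet genes, listed after the clusters were seen, were higher in members of STAM20w but came from few spots. Ppbp, a platelet chemokine, held 127 UMIs in members and 6 in matched spots, and those in members came from 32 of the 335 spots. Pf4, which encodes platelet factor 4, stood at 30.5 and 8.65 CPM there, at 3.12 and 4.81 in STAM16w, at 2.78 and 2.82 in DEN22w and at 3.91 and 2.57 in DEN30w. The STAM20w difference in Pf4 exceeded that of the 3 other sections by 1.76 (SE 0.43, edgeR adjusted p = 0.0138). The 4 of 6 measured platelet genes summed to 59.9 CPM in members and 12.7 CPM in matched spots. For pairs from the same cluster the log2 ratio of that sum was reversed to -2.61, and for members outside their main cluster to -0.32. The 144 pairs from the same cluster left out most members of the cluster led by Ppbp and Pf4, keeping at most 21 of 208.

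**Figure D3:**
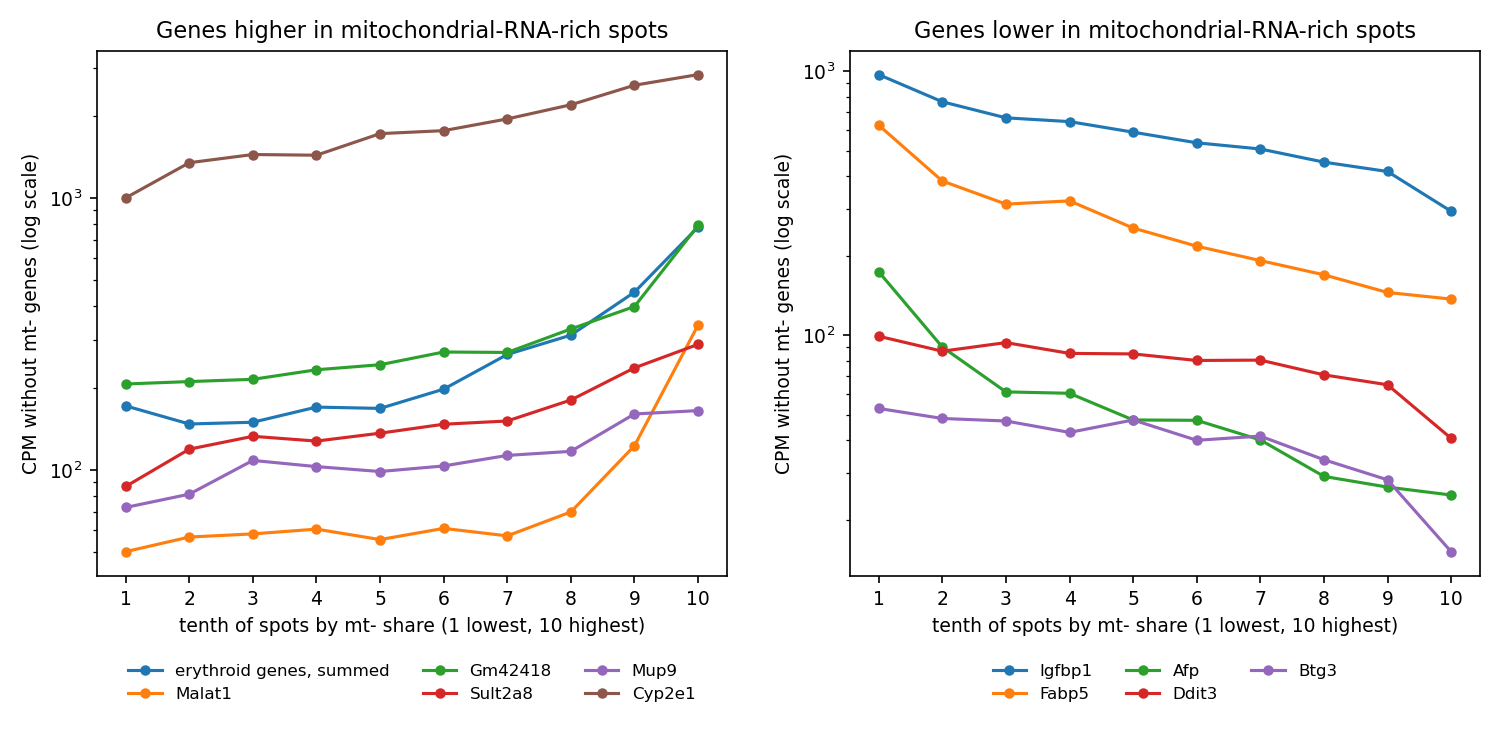
Level in CPM without mt- genes (y, log scale) in 10 bins of equal spot number, ordered by mitochondrial share (x), over the 2234 spots of STAM20w with at least 5000 UMIs; each point is 1 bin. On the left Malat1 stays between 49.99 and 70.0 CPM up to the eighth bin and reaches 340 CPM in the tenth, while Cyp2e1 goes from 999 to 2837 CPM; on the right Afp goes from 174 to 24.8 CPM and Igfbp1 from 972 to 295 CPM.

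The remaining higher genes were Sult2a8 and Mup9, both of hepatocytes. Sult2a8, a liver sulfotransferase acting on bile acids (chromosome 7, 14410686 to 14446780), stood at 270 CPM in members and 110 CPM in matched spots, a log2 ratio of 1.296 (exact 95% interval 1.17 to 1.42). Members and matched spots stood at 428 and 370 CPM in STAM16w, 384 and 382 in DEN22w, and 132 and 127 in DEN30w. Sult2a8 was not called in the 3 other sections (0.19, SE 0.07, edgeR adjusted p = 0.0608), and the STAM20w difference exceeded theirs by 1.27 (SE 0.14, adjusted p = 4.26e-10). Over the bins of mitochondrial share it went from 86.8 to 289 CPM. Against matched spots outside the patches led by Cpe, by Akr1c18 and Cib3, and by H19, its ratio was 0.73.

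The major urinary proteins, small carriers of scent molecules secreted by male-type hepatocytes, followed the same course. Their genes are near-identical copies, so the value of any single one is uncertain. Of 13 measured, 12 were above 0, with a median log2 ratio of 0.92 and 9 past 1.5-fold (a step that 1.36% of all genes at 50 CPM took upward and 4.47% downward), and they summed to 6726 CPM in members and 4033 CPM in matched spots. The medians elsewhere were 0.16 in STAM16w, -0.10 in DEN22w and 0.34 in DEN30w. Mup9 stood at 167 and 78.2 CPM in STAM20w, against 8402 and 7447 in STAM16w, 169 and 167 in DEN22w, and 27.8 and 26.4 in DEN30w. STAM16w thus had far more Mup RNA in both classes. The STAM20w difference exceeded that of the other sections by 1.06 for Mup9 (SE 0.16, edgeR adjusted p = 4.71e-06), 0.89 for Mup11, 0.93 for Mup17 and 1.02 for Mup14, and in all 8 of 12 tested Mup genes were called higher in this difference by edgeR, against 0.538% of all genes, and 4 of 12 by DESeq2. In the 3 other sections 4 of 12 Mup genes rose and 1 fell, against 6.89% and 4.49% of all genes. Against matched spots outside the patches, the Mup9 ratio was 0.41.

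Cytochrome P450 genes did not move as 1 group. Cyp2e1, the ethanol-metabolising enzyme of pericentral hepatocytes, stood at 2733 CPM in members and 1397 CPM in matched spots, a log2 ratio of 0.97. Elsewhere Cyp2e1 stood at 2549 and 2376 CPM, 1240 and 1030 CPM, and 1308 and 1073 CPM. It rose by 0.32 in those 3 sections (SE 0.07, edgeR adjusted p = 0.000544), and STAM20w exceeded them by 0.81 (adjusted p = 4.37e-05). Cyp2c50, a member of a family of close copies, was at 266 and 139 CPM in STAM20w, and its difference exceeded the others by 0.63 (adjusted p = 0.0111). Cyp1a2, likewise pericentral, was lower at 317 and 501 CPM, and its difference lay below that of the others (-0.74, adjusted p = 0.000347).

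Genes of both zones of the liver lobule lay on either side of 0 in STAM20w. Of 15 pericentral genes 8 were above 0 in STAM20w, with a median log2 ratio of 0.02, and of 16 periportal genes 7, with a median of -0.04, both above the all-gene median of -0.16. Summed, the pericentral genes stood at 6530 CPM in members and 5080 CPM in matched spots, a log2 ratio of 0.36, and the periportal ones had a ratio of -0.04. In the 3 other sections 7 of 15 pericentral and 6 of 16 periportal genes rose and 0 fell by edgeR, also at an unadjusted p under 0.05, against 6.89% and 4.49% of all genes. Glul, which makes glutamine in the cells next to the central vein, stood at 511 and 504 CPM. Among periportal genes, the urea cycle gene Ass1 stood at 1156 and 746 CPM and exceeded the other sections' difference by 0.60 (SE 0.14, edgeR adjusted p = 0.00734), whereas Cyp2f2 stood at 634 and 545 CPM. Bile acid genes had a median of 0.27 over 10, 6 of them above 0: the uptake carrier Slc10a1 was at 0.51 and the synthesis enzyme Cyp8b1 at 0.49, while Nr0b2, which represses that synthesis, was at -0.52. Ppara, the nuclear receptor that turns on fatty acid oxidation, stood at 47.7 and 24.1 CPM and exceeded the other sections' difference by 1.33 (adjusted p = 0.00569). Its log2 ratio was 1.27 in the largest connected group and 0.38 (exact 95% interval -0.13 to 0.89) outside it. Its listed target genes of fatty acid oxidation had a median of 0.05 over 20.

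Nuclear genes of the respiratory chain were slightly higher in members by their medians. The median log2 ratio in STAM20w was 0.15 for 37 genes of complex I, 0.24 for 4 of complex II, 0.11 for 10 of complex III, 0.09 for 12 of complex IV and 0.23 for 17 of complex V. Atp5e, a small subunit of ATP synthase, stood at 1412 CPM in members and 896 CPM in matched spots (log2 ratio 0.66), and its partner Atp5g3, part of the rotor ring, at 591 and 398 CPM (0.57). Atpif1, whose product inhibits that enzyme, was lower at 340 and 505 CPM (-0.57). The largest ratios of complexes I to III were 0.39 for Ndufa1, 0.43 for Sdhc and 0.36 for Uqcrq. The 4.04-fold to 10.4-fold ratios of the mitochondrial genes are large by the rule that chose the spots. They are also of CPM over all UMIs, so the nuclear ratios are not measured against them.

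The same small shift was called in the other sections. In the 3 sections that had no part in the choice of members, 14 of 37 complex I genes rose and 0 fell, against 6.89% and 4.49% of all genes, and 3 of 4, 5 of 10, 6 of 12 and 9 of 17 rose for complexes II to V, with 0 falling by edgeR (of all 80 genes, 56 were higher and 1 lower at an unadjusted p under 0.05). Atp5e rose there by 0.44 (SE 0.07, edgeR adjusted p = 3.99e-06). The STAM20w difference was called apart from theirs for 0 of these 80 genes by edgeR and by DESeq2, with 10 higher and 1 lower at an unadjusted p under 0.05 by edgeR and 2 and 0 by DESeq2. Over all 4 sections, where 7.73% of genes rose and 5.36% fell, 21, 3, 6, 7 and 10 genes of the 5 complexes rose. These counts depend on the scaling: with library size alone they were 6, 2, 1, 2 and 6, since the fit without TMM moved the median of all genes from 0.002 to -0.13 and turned 877 rising and 608 falling genes into 327 and 1710. Without DEN30w or DEN22w, that fit with TMM called 376 and 901 genes in place of 1485.

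Other nuclear genes of mitochondria had lower medians in STAM20w than those of the chain, a difference that was not tested. Of 16 genes of the citric acid cycle 4 were above 0 in STAM20w (median -0.10), with citrate synthase (Cs) at 130 and 181 CPM and Pdhb, of the pyruvate dehydrogenase complex, at a log2 ratio of -0.40. The 23 genes that maintain or transcribe mitochondrial DNA had a median of -0.11, with Mterf4 at -0.82 and Polrmt, the mitochondrial RNA polymerase, at -0.64. Mterf4, which helps assemble the mitochondrial ribosome, fell over the 3 other sections (log2 -0.37, SE 0.12, edgeR adjusted p = 0.027). Mitochondrial ribosome genes had a median of -0.04 over 18, import and chaperone genes -0.17 over 18, and genes of fission, fusion and mitophagy -0.08 over 15. Hspe1, a chaperonin of the mitochondrial matrix, stood at 762 and 1032 CPM. In the 3 other sections, 3 of 16 citric acid cycle genes, 3 of 18 of the mitochondrial ribosome, 2 of 18 of import and 1 of 14 of fission, fusion and mitophagy rose and 0 fell by edgeR, against 6.89% and 4.49% of all genes. At an unadjusted p under 0.05, 3 import genes and 1 of fission, fusion and mitophagy were lower there, and 0 of the other 2 lists. Of 22 genes of mitochondrial DNA upkeep, 1 rose and 2 fell. The medians of these 5 lists in STAM20w thus lay between -0.17 and -0.04, beside -0.16 for all genes.

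**Figure D4:**
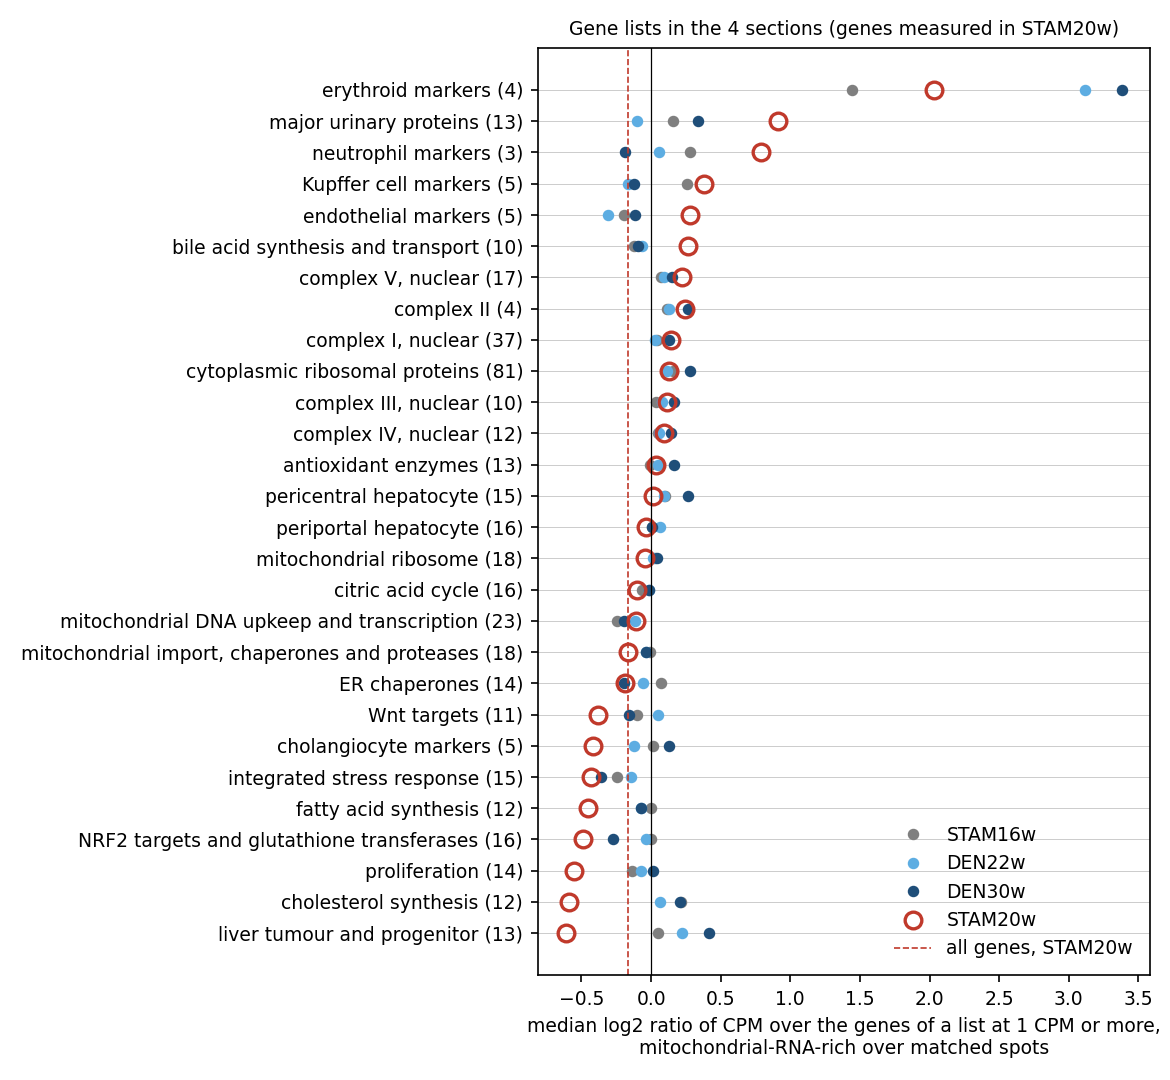
Median log2 ratio of CPM, members over matched spots (x), for each gene list (y, with the number of genes measured in STAM20w), with STAM20w as red circles and the other sections as filled dots; the dashed line is the median of all genes of STAM20w at -0.16. Erythroid genes are to the right in all 4 sections, while major urinary proteins, cholesterol synthesis and tumour genes stand apart in STAM20w.

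Cytoplasmic ribosomal protein genes were higher in members, most for a few short ones. Rps29 stood at 1712 CPM in members and 1043 CPM in matched spots of STAM20w (log2 ratio 0.71), Rps28 at 1457 and 902 CPM and Rpl39 at 1617 and 1117 CPM. Rps29 lay above the matched median in 92.8% of members. Of 81 measured, 61 were above 0 in STAM20w, with a median of 0.13. In the 3 other sections 64 of 81 rose and 0 fell, also at an unadjusted p under 0.05, against 6.89% and 4.49% of all genes, and Rps29 rose by 0.58 (SE 0.07, edgeR adjusted p = 1.87e-08). Over all 4 sections 61 rose with TMM scaling and 38 with library size alone.

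The lowest ratio among the named genes was that of Afp, a marker of fetal liver and liver tumours. Afp, the alpha-fetoprotein gene (chromosome 5, 90490714 to 90508907), stood at 25.7 CPM in members and 84.7 CPM in matched spots, a log2 ratio of -1.72. Elsewhere Afp was at 13.2 and 6.18 CPM, 5.56 and 6.58 CPM, and 9.63 and 5.48 CPM. It rose by 0.76 over those sections (SE 0.24, edgeR adjusted p = 0.0253), and the STAM20w difference lay below theirs by a log2 value of -2.32 (SE 0.27, adjusted p = 1.91e-09). Afp went from 174 CPM in the lowest bin of mitochondrial share to 24.8 CPM in the highest. The protease inhibitor gene Slpi stood at 31.8 and 67.7 CPM, and it likewise rose in the 3 other sections (0.94, adjusted p = 7.52e-07). Plat, the tissue plasminogen activator gene, stood at 78.1 and 165 CPM. The STAM20w difference of Slpi lay below theirs by -1.86 (adjusted p = 2.09e-10) and that of Plat by -1.63 (adjusted p = 4.62e-05).

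Afp, Slpi and Plat depended on which matched spots were used. When matched spots were taken outside the patches led by Cpe, by Akr1c18 and Cib3, and by H19, the log2 ratios of Afp, Plat, Slpi, Fabp4, Meg3 and Nupr1 were reversed to 0.46, 0.70, 0.29, 0.11, 0.998 and 0.94. That alternative was chosen after seeing the data. Fabp5 was then at -0.10, while Malat1 was at 2.57 and Gm42418 at 1.65. Without the part of the section at later rows and lower columns, Slpi was at 0.16 and Fabp4 at 0.13. The 5 genes of the patch led by H19 had a median of -1.28 and those of the patch led by Cpe one of -0.98 in members, but both lists were chosen earlier on these samples and are no independent evidence of a direction. Over the listed tumour and progenitor genes, 3 of 13 were above 0 in STAM20w (median -0.61), whereas in the 3 other sections 7 of 11 rose and 0 fell, also at an unadjusted p under 0.05, against 6.89% and 4.49% of all genes. Of all genes of STAM20w, 32.9% were above 0.

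The fatty acid binding protein genes Fabp5 and Fabp4 were lower in members, but this depended on the matched spots. With matched spots outside the patches, their log2 ratios were -0.10 and 0.11. Fabp5 and Fabp4, neighbours on chromosome 3 (10012585 to 10016610 and 10204342 to 10208616) that carry fatty acids within the cell, stood at 138 and 335 CPM and at 344 and 763 CPM in members and matched spots. Typical spots differed less than these sums: the spot medians were 284 and 317 CPM for Fabp4, and 41.8% of members lay above the matched median. Elsewhere Fabp5 was at 42.7 and 47.4, 52.5 and 62.3, and 66.0 and 51.9 CPM. Neither gene was called in the 3 other sections by edgeR (Fabp5 0.16, adjusted p = 0.348, and Fabp4 0.07, adjusted p = 0.752). The STAM20w difference lay below theirs by -1.27 for Fabp5 (adjusted p = 1.53e-08) and -1.06 for Fabp4 (adjusted p = 1.02e-05).

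Lipid synthesis genes were lower as well, against matched spots that lay more often in the patches than members did. The patches led by Cpe, by Cib3 and by H19 held 54, 28 and 51 matched spots and 9, 10 and 8 members. Values of these lists with matched spots outside the patches are not given here. All 12 measured genes of fatty acid synthesis were below 0 (median -0.45), among them fatty acid synthase (Fasn) at 130 and 245 CPM, its regulator Mlxipl at -0.68, Acaca at -0.62 and Acly at -0.60. All 12 of cholesterol synthesis were below 0 too (median -0.59), with Mvd at -0.80, Lss at -0.74 and Fdps at 105 and 163 CPM. Elsewhere the cholesterol list had medians of 0.22, 0.06 and 0.21. In the 3 other sections together 6 of its 12 genes rose and 0 fell by edgeR. Of the 12 fatty acid synthesis genes 3 rose and 2 fell there, against 6.89% and 4.49% of all genes. The STAM20w difference lay below that of the other sections for 5 of the 12 cholesterol genes (Sqle, Idi1, Cyp51, Fdps and Hmgcs1) and for Fasn and Acly by edgeR, against 0.502% of all genes. DESeq2 called 0 of the 12 genes of either list in this difference, with 5 cholesterol and 4 fatty acid synthesis genes lower at an unadjusted p under 0.05. The value for Fasn was -0.67 (SE 0.14, edgeR adjusted p = 0.00279) and for Fdps -0.80 (SE 0.15, adjusted p = 0.000386).

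The lower genes also included Ddit3 and Nupr1 of the stress response. Ddit3, the CHOP gene of the integrated stress response, stood at 49.9 CPM in members and 112 CPM in matched spots, a log2 ratio of -1.17. That ratio was -0.44 for pairs from the same cluster and -0.305 with matched spots outside the patches. Ddit3 was lower in members of every other section too, at 18.4 and 24.0, 50.7 and 62.3, and 53.1 and 85.9 CPM. Ddit3 fell by 0.41 over those sections (edgeR log2 -0.41, SE 0.10, adjusted p = 0.00441), and the STAM20w difference from them was not called (-0.60, adjusted p = 0.0596). Nupr1, a nuclear stress protein, stood at 150 and 306 CPM, with a difference below the others' by -0.79 (adjusted p = 0.0128). That Nupr1 value was reversed to 0.16 for pairs from the same cluster (adjusted p = 0.848) and to 0.99 for spots of low erythroid share (adjusted p = 0.0899). Of 15 genes of this response 2 were above 0 in STAM20w (median -0.43), and of 16 NRF2 targets and glutathione transferases 0 were (median -0.49), with Gstm3 at 212 and 391.7 CPM.

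Igfbp1, a fasting-induced binding protein of growth factors, stood at 342 CPM in members and 739 CPM in matched spots. Only 14.9% of members lay above the matched median, and the level went from 972 CPM in the lowest bin of mitochondrial share to 295 CPM in the highest. Members and matched spots differed little in Igfbp1 elsewhere, at 207 and 202 CPM, 12.7 and 14.1 CPM, and 169 and 174 CPM. The STAM20w difference lay below theirs by -1.04 (SE 0.14, edgeR adjusted p = 1.55e-07). The antiproliferative gene Btg3 (18.5 and 54.2 CPM) and the regulator of differentiation Ifrd1 (53.8 and 117 CPM) were also lower in STAM20w, with differences below the others' of -1.07 (adjusted p = 0.00375) and -0.65 (adjusted p = 0.0419). The size of these falls depended in part on the matched spots. The log2 ratios of Igfbp1, Btg3 and Ifrd1 were -1.11, -1.55 and -1.12 in the main comparison. For pairs from the same cluster they were -0.56, -0.88 and -1.05. With matched spots outside the patches they were -0.57, -0.36 and -0.69.

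The rest of the named lower genes also fell in the other sections. Meg3, an imprinted noncoding RNA, stood at 30.03 and 67.4 CPM in STAM20w and fell in the other sections (log2 -0.48, SE 0.10, edgeR adjusted p = 0.000792). Zc3h7a, an RNA-binding protein gene, stood at 30.8 and 67.2 CPM and fell there too (-0.36, adjusted p = 0.00501), as did the noncoding RNA Snhg20 (-0.53, adjusted p = 3.5e-05) and the gene model Gm47283 (-0.56, adjusted p = 3.82e-08). For these 4 genes the STAM20w difference was not called apart from that of the other sections. The fall of Meg3 within STAM20w depended on the matched spots. Its log2 ratio was -0.12 for pairs from the same cluster and 0.998 with matched spots outside the patches. Meg3 was detected in 26.9% of members and 27.5% of matched spots. In all, 5 of the 8 higher and 5 of the 14 lower genes of STAM20w were called the same way in the 3 other sections, and 2 of the 14, Afp and Slpi, the opposite way. Of all genes, 6.89% rose and 4.49% fell in those sections. The difference between STAM20w and the others was called for 5 of the 8 and 9 of the 14, against 0.538% higher and 0.502% lower of all genes. The choice of genes by their STAM20w ratio favours these counts, which are given as a description.

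**Figure D5:**
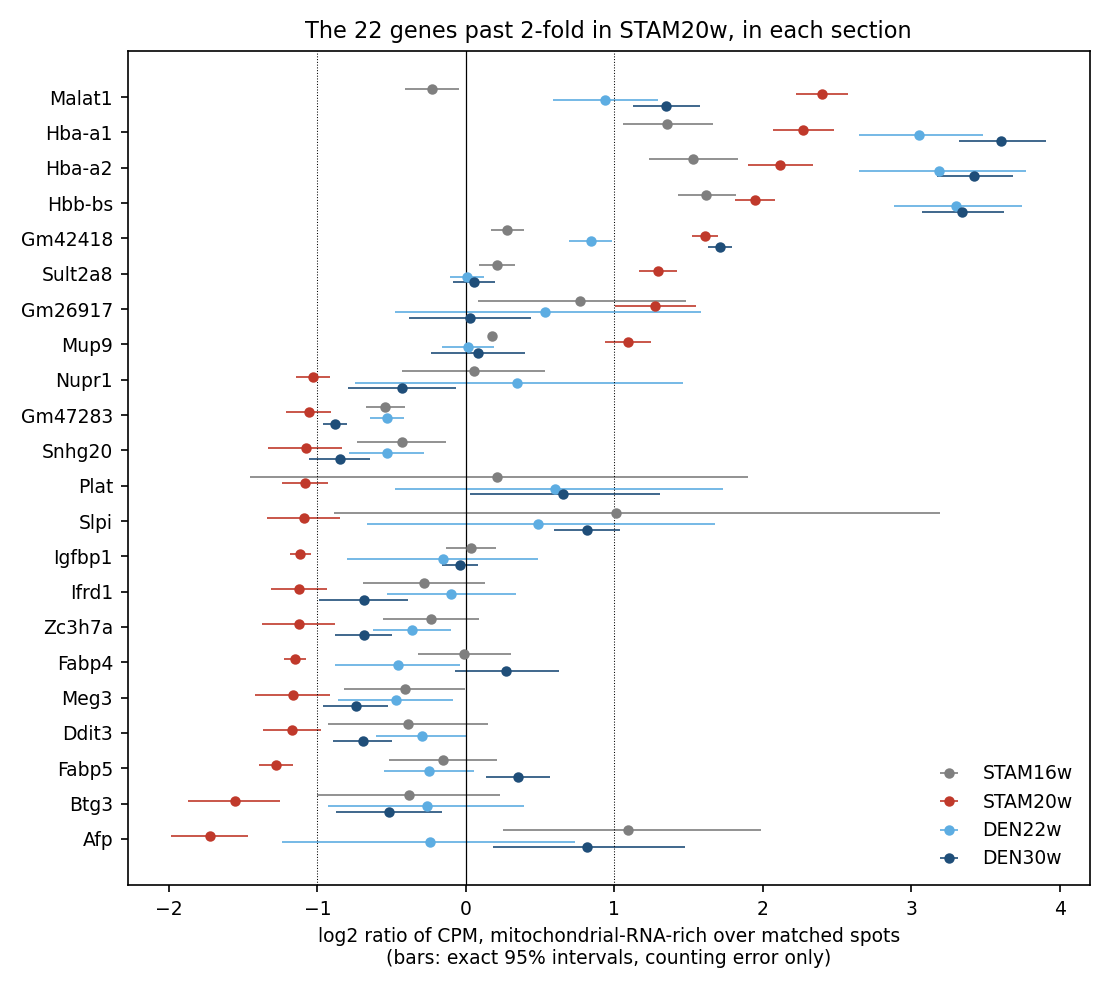
Log2 ratio of CPM, members over matched spots (x), for the 22 genes past 2-fold in STAM20w (y), with 1 point per section and bars for exact 95% intervals that cover counting error only; dotted lines mark 2-fold. The haemoglobin genes and Gm42418 are above 0 in all 4 sections, whereas Sult2a8, Mup9, Igfbp1, Fabp4 and Fabp5 lie past 2-fold only in STAM20w.

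Genes that moved alike in all 4 sections gave a second view of what goes with mitochondrial RNA. In the 3 other sections, members also lay at the tissue edge more often than matched spots. The largest rises with 1 sign in 4 of 4 sections were those of Hbb-bt (3.03, SE 0.20, edgeR adjusted p = 3.41e-14), Hba-a1 (2.68), Hba-a2 (2.64) and Hbb-bs (2.50). Next came Tff3, a mucosal repair peptide (1.298), Gm42418 (1.25), the growth factor Bmp4 (1.13), the caveolar protein gene Cav1 (1.12), Wfdc1 (1.07) and Gstcd (1.05). In STAM20w Cav1 held 29 UMIs in members and 9 in matched spots. The largest falls were those of Pkmyt1 (-1.25) and Gtse1 (-1.22), both of the cell cycle, Wdr38 (-1.24), Snhg10 (-1.20), Gm17494 (-1.19), Psrc1 (-1.12), Sftpa1 (-1.10), Arhgef39 (-1.08) and Mir142hg (-1.01). Apart from the globins and Gm42418, these genes had few UMIs, such as 7 and 23 for Pkmyt1 in STAM20w. Several of them had no call in the fit without STAM20w. The edgeR fit without STAM20w did not test Bmp4, Gstcd, Pkmyt1, Wdr38, Gtse1, Gm17494 and Mir142hg, which its filter on low counts removed. That fit did not call Cav1 (adjusted p = 0.0894), Wfdc1 (adjusted p = 0.0606) or Snhg10 (adjusted p = 0.0519). Of 14 proliferation genes 0 were above 0 in STAM20w (median -0.55), and over the 4 sections Cdk1 and Mki67 fell and 0 rose by edgeR (3 lower and 1 higher at an unadjusted p under 0.05), while DESeq2 called 0 of the 14, with 1 lower unadjusted. Of all genes, 5.36% fell and 7.73% rose over the 4 sections by edgeR.

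Markers of other cell types differed between the classes less than those of blood. All 5 Kupffer cell markers were above 0 (median 0.38), summing to 848 CPM in members and 647 CPM in matched spots, against 519 and 500, 312 and 342, and 438 and 484 CPM elsewhere. For 2 of them, Cd5l and Clec4f, the STAM20w difference exceeded the others, by 0.70 for Cd5l (edgeR adjusted p = 0.00119) and 0.63 for Clec4f (adjusted p = 0.00966). Of all genes, 0.538% were called higher in that difference. The 3 of 4 measured neutrophil markers summed to 97.9 and 55.6 CPM, with S100a8 at 43.2 and 20.1 CPM; the log2 ratio of that sum was reversed to -0.26 for pairs from the same cluster and to -0.18 for members outside their main cluster. All 5 endothelial markers were above 0 (median 0.28). Of 5 cholangiocyte markers 1 was above 0 (median -0.42), and Spp1, which bile ducts and macrophages secrete, stood at 124 and 216 CPM. The 5 stellate and fibroblast markers had 2 above 0 and summed to 433 and 356 CPM, whereas in the other 3 sections 5 of 5 rose. Of all genes, 6.89% rose and 4.49% fell there. T cell markers summed to 3.75 and 4.33 CPM, and none of 3 adipocyte markers reached 1 CPM. The part of these cell types in the gene differences was not tested.

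The members were not uniform. The 208 in the main cluster had 23 genes past 2-fold higher and 42 lower than their own matched spots, against 6 and 3 for the 127 outside it. The 167 members of larger mitochondrial share had 15 and 32, and the 168 of smaller share 7 and 10. Plat was at -2.62 in the main cluster and -0.13 outside it, Meg3 at -2.50 and -0.27, and Afp at -2.87 and -0.84. Malat1 (2.66 and 1.78), Gm42418 (1.84 and 1.07), Hba-a1 (2.15 and 2.49) and Sult2a8 (1.42 and 1.01) were past 2-fold in both. Glul was at -0.23 in the main cluster and 0.30 outside it. Mup9 (1.26 and 0.74) and Gm26917 (1.49 and 0.85) were past 2-fold in the main cluster and short of it outside. When members outside the main cluster were matched anew, Sult2a8 was at 0.78 and Malat1 at 1.63.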

How the data were processed

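Visium spots of 4 mouse liver sections were analysed, 1 section per group, with no replicate section. The authors deposited filtered tables of raw UMI counts per gene and spot and of array positions; per the submitters' processing notes the tools were Space Ranger 1.3.1 and STAR and the build mm10, and settings and annotation version are not given in the sources used here. A count table of this kind includes RNA that diffused between spots. Kept UMIs numbered 40008457 for STAM20w, against 20700642 for STAM16w, 22471682 for DEN22w and 34880049 for DEN30w. Spot barcodes are slide positions, and 1133 of them occur in all 4 sections.

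Spots with at least 500 UMIs and 250 genes were kept, and members and matched spots were chosen in each section by the rule in the results. UMIs were summed per section and class without mt- genes; CPM ratios carry exact 95% intervals. Over sections, edgeR 4.0.16 (R 4.3.3) fitted the sums after filterByExpr and TMM scaling with section as a block, a second model let the difference depend on section being STAM20w, and a further fit left STAM20w out; both classes of a section share 1 library. Calls have an adjusted p under 0.05. On simulated counts, the 4-section fit recovered 88.8% of genes changed by a log2 value of 1 and 100% of those changed by 2, and the STAM20w difference fit 20.2% and 87.9%. The simulation used the same dispersion for all genes, set by hand rather than estimated from these data. It let no change vary at random between sections and did not cover the fit without STAM20w. These percentages are therefore not the power of the tests on the real counts. Lists were measured at 1 CPM or more in either class. Clusters came from scanpy 1.11.5 without mt- genes (2000 variable genes, Leiden resolution 1). Doublet callers do not apply to spots. RefSeq symbols matched 26335 of 32285 genes, and coordinates are those of GRCm38.p6.

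The members and lists were chosen with earlier results of these data known; the platelet list, the low-erythroid limit, members outside their main cluster and matched spots outside the patches were added after seeing the data. Named in STAM20w were the 12 genes of largest ratio in each direction past 2-fold (Gm47283 and Nupr1, also past it, were named after their values were seen), over 4 sections the 10 called genes of largest change per direction with 1 sign in all sections (1 of them is not reported here), and for each list up to 4 members of largest ratio at 20 CPM or more plus the fixed markers; some other list genes, such as Alas2, Ppara, Clec4f and Cs, were named after their values were seen. Other depth minimums, shares, pairings, scalings, filters and DESeq2 1.42.0 were tried as alternatives.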

Additional observations from a re-analysis of the deposited data

Results flagged for a closer look

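For 14 of the 22 genes past 2-fold in STAM20w, the difference between members and matched spots in that section departed from the difference in the 3 other sections by edgeR's test of the interaction. Of all genes tested, 0.538% departed upward and 0.502% downward. Among the higher genes the departure on the log2 scale was 1.87 for Malat1, 1.27 for Sult2a8, 1.06 for Mup9, 1.04 for Gm26917 and 0.70 for Gm42418. Among the lower genes it was -2.32 for Afp, -1.86 for Slpi, -1.63 for Plat, -1.27 for Fabp5, -1.07 for Btg3, -1.06 for Fabp4, -1.04 for Igfbp1, -0.79 for Nupr1 and -0.65 for Ifrd1. These genes were chosen for their ratio in STAM20w and the test uses the same counts, so that part of each departure is fixed by the choice. The test also compares 1 section with 3 of different models and times, so model, time and section cannot be told apart. Groups of 1 section allowed no search for samples that stand apart.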

How the results depend on the processing

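The 22 genes past 2-fold in STAM20w became 163 at 1.5-fold, 53 at 20 CPM, 39 with the top 10%, 11 with the top 25%, 39 with matched spots from the lowest 25% by mitochondrial share, 35 without the part of the section at earlier rows and lower columns, 11 for pairs from the same cluster, 91 for the 53 pairs of low erythroid share and 7 for members outside their main cluster. Contacts between members (52.3%) were 49.2% with the top 10% and 62.3% with the top 25%. The 1485 genes called over 4 sections became 460 by DESeq2, 658 for pairs from the same cluster, 155 at low erythroid share and 0 in the fit without the section block, where edgeR gave 196 at an unadjusted p under 0.05; leaving out 1 section each gave 376 (without DEN30w) to 1295 (without STAM16w). The 118 genes of the STAM20w difference became 16 by DESeq2 and 50 at low erythroid share, and 59 (without DEN22w) to 300 (without DEN30w) when 1 of the other sections was left out. The causes were not tested. Fewer pairs remained in STAM20w for low erythroid share (53) and within clusters (144). The pairs within clusters held at most 21 of the 208 members of the main cluster.

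Log2 ratios in STAM20w that were reversed were, for pairs from the same cluster, those of the neutrophil markers (-0.26) and platelet markers (-2.61). For members outside their main cluster these were -0.18 and -0.32. At low erythroid share Nupr1 was at 0.20 and Hba-a1 at -0.12, the latter partly fixed by the limit on erythroid genes. With matched spots outside the patches, Afp was at 0.46, Plat at 0.70, Slpi at 0.29, Fabp4 at 0.11, Meg3 at 0.998, Nupr1 at 0.94, and the lists of the patches led by Cpe and H19 at 0.97 and 0.092. Without the part at later rows and lower columns, Slpi was at 0.16 and Fabp4 at 0.13. The STAM20w difference of Nupr1 was reversed to 0.16 for pairs from the same cluster and 0.99 at low erythroid share. Of 396 values of the named genes under alternatives in STAM20w, 224 stayed within counting error, 162 moved and 10 were reversed. For genes named over 4 sections, 171 of 219 values stayed called in the same direction, and 48 were no longer called. Settings in which such a gene was filtered out or had no adjusted p are not among the 219. The labels give no replicate numbers, and the section was the only block that could be fitted. With 1 section per group the precision within STAM20w is that of UMI counting only.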
